A study of Arabidopsis thaliana with 36 samples.

Results

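COR47, COR15A and HIS1-3 are Arabidopsis genes known for their induction by drought, cold and the hormone abscisic acid. Each was measured by 1 probe set, a group of short probes against 1 transcript, and was chosen because the probe gene table lists it as the only gene of that probe set. They are 3 of 13513 probe sets with a single gene, among 22746 probe sets tested. The members are COR47 (AT1G20440, probe set 259570_at), COR15A (AT2G42540, probe set 263497_at) and HIS1-3 (AT2G18050, probe set 265817_at).

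RNA from the whole green leaf tissue of 14-day-old seedlings was hybridised to 36 one-colour Affymetrix arrays, with 3 arrays in each of 12 groups. The genotypes were rao2 (an EMS mutant), anac017-1 (a T-DNA knock-out of ANAC017), anac017-2 (a gain of function mutant of ANAC017) and wild type (labelled Col:LUC, ecotype Columbia). Seedlings of each genotype had been sprayed with 50 µM antimycin A, an inhibitor of the mitochondrial respiratory chain, with 20 mM hydrogen peroxide, or with deionised water, and were harvested after 3 h. ANAC017 encodes a NAC transcription factor that carries signals from stressed mitochondria to the nucleus, and the study asked how far the responses to both sprays depend on it. All seedlings had grown on Gamborg B5 medium with 3% sucrose. The labels give Col:LUC for wild type only and state no outcrossing or number of lines for the mutants, so effects of the ANAC017 allele and of other differences between these lines cannot be told apart. No probe set listed ANAC017 as its single gene, so the genotype labels could not be checked against its transcript. The labels do not say whether arrays of a group came from separate plants or cultures, so p-values measure only the spread between these samples, which may be technical.

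Abscisic acid binds receptors of the PYR/PYL family, which then inhibit PP2C phosphatases. This frees SnRK2 kinases to activate ABF transcription factors, which switch on protective genes, while DREB/CBF factors activate many of the same genes in cold and drought. COR47 encodes a dehydrin, a hydrophilic protein that accumulates as cells lose water. COR15A encodes a small protein imported into chloroplasts, where it protects membranes during freezing. HIS1-3 encodes a linker histone variant, a protein that binds DNA between nucleosomes, whose transcript rises in drought and with abscisic acid.

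Values below are log2 of the deposited intensity unless a fold is named, and levels of different probe sets are not set against each other. A level is given with the SD of 3 arrays, and a change with the standard error (SE) of a limma fit to all 36 arrays. A probe set was called where the Benjamini-Hochberg adjusted p over all 22746 probe sets was under 0.05. Values no higher than the 25% point of their own array, which lay at 2.45 to 2.56, were counted as not above background. Array medians of intensity lay between 77.7 and 83.6, correlations between arrays of a group between 0.983 and 0.997, and no 2 arrays were identical. The signal of the 3′ minus the 5′ control probe sets for actin, GAPDH and ubiquitin, a measure of RNA integrity, ran from 2.94 to 3.69 over arrays and was highest on average in anac017-1 under antimycin A (3.48 ± 0.20). Of the cell type markers, 3 of 22 had a single-gene probe set. The leaf marker RCA (1 of 8 leaf markers) averaged 14.5 to 14.7 in all 12 groups, the root marker EXPA7 (1 of 4) was not above background on any of the 36 arrays, and the guard cell marker FMA (1 of 4) averaged 5.69 to 6.76. None of the 4 seed or 2 phloem markers had a single-gene probe set. In bulk tissue such as this, fewer cells of a type and less RNA per cell cannot be told apart.

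HIS1-3 was higher after antimycin A than after water in all 4 genotypes, and higher in anac017-1 than in wild type already in water. In rao2, HIS1-3 read 6.71, 8.41 and 7.73 under antimycin A, 5.70, 5.79 and 5.75 under hydrogen peroxide, and 2.31, 2.64 and 3.98 under water. The 3 spray groups of rao2 did not overlap, and its lowest water array was not above background. In rao2, 47.8% of all probe sets did not overlap between antimycin A and water, and 28.3% between hydrogen peroxide and water. The share between the 2 sprays was not counted. In anac017-1, HIS1-3 read 10.10, 9.99 and 9.82 under antimycin A, 7.35, 7.87 and 7.42 under hydrogen peroxide, and 7.52, 6.90 and 6.43 under water. All 9 anac017-1 arrays were well above background, and the hydrogen peroxide and water arrays overlapped. In anac017-2, HIS1-3 read 7.48, 6.97 and 7.17 under antimycin A, 5.84, 4.45 and 5.30 under hydrogen peroxide, and 4.22, 3.82 and 4.66 under water. In wild type it read 6.17, 6.56 and 6.50 under antimycin A, 4.59, 2.93 and 5.61 under hydrogen peroxide, and 2.43, 4.33 and 4.31 under water. The antimycin A arrays of anac017-2 and of wild type stood above all other arrays of their genotype, while hydrogen peroxide and water arrays overlapped, and 1 wild type water array was not above background.

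**Figure D1:**
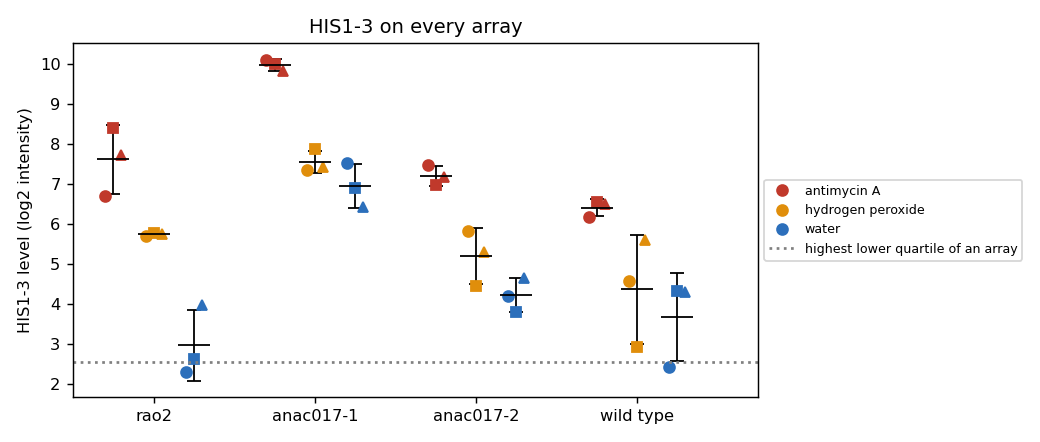
HIS1-3 level (log2 intensity, vertical axis) on each of 36 arrays, by genotype and spray; circles, squares and triangles are replicates 1, 2 and 3, and bars are the mean ± SD of 3 arrays. The anac017-1 arrays under antimycin A (9.82 to 10.10) lie above all other arrays.

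After antimycin A the HIS1-3 level exceeded that after water by 4.64 ± 0.55 (SE) in rao2 (limma adjusted p = 1.05e-07). The same change was 3.02 ± 0.55 in anac017-1 (adjusted p = 4.36e-05), 2.97 ± 0.55 in anac017-2 (adjusted p = 0.000605) and 2.72 ± 0.55 in wild type (adjusted p = 0.000173). HIS1-3 was thus called higher in 4 of 4 genotypes and was so without any single array, with changes from 4.24 to 5.14 in rao2, 2.76 to 3.30 in anac017-1, 2.77 to 3.19 in anac017-2 and 2.09 to 3.04 in wild type. These calls stand beside high backgrounds, since antimycin A moved 42.2% of all probe sets in rao2, 45.3% in anac017-1, 15.3% in anac017-2 and 44% in wild type. Arrays under antimycin A and water did not overlap in 47.8%, 52.3%, 36.3% and 50.6% of all probe sets in these genotypes. The guard cell marker FMA averaged 6.23 ± 0.15 under antimycin A, 6.46 ± 0.21 under hydrogen peroxide and 6.64 ± 0.11 under water in rao2, and 5.69 ± 0.32, 5.97 ± 0.06 and 6.62 ± 0.27 in anac017-1 (SD, n = 3 each). In anac017-2 it averaged 6.57 ± 0.20, 6.23 ± 0.18 and 6.54 ± 0.21 under the same sprays, and in wild type 5.83 ± 0.16, 6.19 ± 0.31 and 6.76 ± 0.15. The FMA means were thus lower under antimycin A than under water in 3 genotypes and level in anac017-2, and the part of this in the HIS1-3 result was not tested. The antimycin A and hydrogen peroxide responses of a genotype share its 3 water arrays.

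After hydrogen peroxide, HIS1-3 rose in rao2 and did not pass the test in the other 3 genotypes. The change against water was 2.77 ± 0.55 in rao2 (limma adjusted p = 0.00146), where 11.4% of probe sets were called and 28.3% did not overlap. It was 0.59 ± 0.55 in anac017-1 (adjusted p = 0.79), 0.96 ± 0.55 in anac017-2 (adjusted p = 0.331) and 0.69 ± 0.55 in wild type (adjusted p = 0.469). The 95% interval of the wild type change ran from -0.44 to 1.82. The responses of rao2 exceeded those of wild type by 1.92 ± 0.78 for antimycin A (adjusted p = 0.362) and by 2.08 ± 0.78 for hydrogen peroxide (adjusted p = 0.568), and neither difference passed the test. In water rao2 had the lowest mean of the 12 groups, 2.98 ± 0.88 (SD, n = 3). The 3′ minus 5′ control signal in rao2 was 3.38 ± 0.17 under antimycin A and 3.34 ± 0.16 under hydrogen peroxide, against 3.22 ± 0.04 in water, and its part in the result was not tested. The differences from wild type were 0.30 ± 0.78 and -0.09 ± 0.78 for anac017-1 and 0.25 ± 0.78 and 0.28 ± 0.78 for anac017-2 (antimycin A and hydrogen peroxide in turn). Over these 6 differences none of the 3 members was called, where 1.3% and 0.0132% of probe sets were called for rao2, 2.98% and 0.0264% for anac017-1, and 28.4% and 0.0352% for anac017-2.

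Antimycin A gave a higher HIS1-3 level than hydrogen peroxide in each genotype. The level under antimycin A exceeded that under hydrogen peroxide by 1.87 ± 0.55 in rao2 (limma adjusted p = 0.00773), 2.42 ± 0.55 in anac017-1 (adjusted p = 0.000588), 2.01 ± 0.55 in anac017-2 (adjusted p = 0.0297) and 2.03 ± 0.55 in wild type (adjusted p = 0.00433). The background of calls was 37.9% in rao2, 45% in anac017-1, 5.22% in anac017-2 and 35.7% in wild type. The call in rao2 was lost without rao2 antimycin A replicate 2 (1.47, adjusted p = 0.0566), the call in wild type without wild type hydrogen peroxide replicate 2 (1.31, adjusted p = 0.0634), and the call in anac017-2 without any of 5 of its 6 arrays (adjusted p up to 0.133).

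The knock-out anac017-1 held more HIS1-3 transcript than wild type under every spray. In water the difference was 3.26 ± 0.55, 9.61-fold (limma adjusted p = 0.000336), the 11th highest of 22746 probe sets, in a comparison in which 5.43% of probe sets were called and 33% did not overlap. The lowest anac017-1 water array (6.43) lay above the highest wild type water array (4.33). Leaving out single arrays gave differences of 2.63 to 3.58, all called, whereas a fit to these 6 arrays alone gave adjusted p = 0.0653. Contrasts added after the levels had been seen gave 3.56 ± 0.55 over wild type under antimycin A (adjusted p = 3.9e-05, background 18.6%) and 3.17 ± 0.55 under hydrogen peroxide (adjusted p = 0.000406, background 6.24%), the second of which was lost in a fit to those 6 arrays alone (adjusted p = 0.0948). The 3′ minus 5′ control signal was also higher in anac017-1 than in wild type, at 3.48 ± 0.20 against 3.10 ± 0.07 under antimycin A and 3.27 ± 0.04 against 3.14 ± 0.17 in water (SD, n = 3 each), and its part in the result was not tested.

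The 2 other mutants did not show this difference in water. HIS1-3 differed from wild type by -0.71 ± 0.55 in rao2 (limma adjusted p = 1, background 0.132%) and by 0.55 ± 0.55 in anac017-2 (adjusted p = 1, background 0.506%). The anac017-1 water level exceeded that of rao2 by 3.98 ± 0.55 (adjusted p = 2.19e-05, background 5.62%), in a contrast added after the levels had been seen. Under antimycin A the same difference was 2.35 ± 0.55 (adjusted p = 0.00376, background 15.9%), lost in a fit to those 6 arrays (adjusted p = 0.0562), and under hydrogen peroxide 1.80 ± 0.55 (adjusted p = 0.0525, background 5.65%). Under the sprays rao2 stood 1.21 ± 0.55 above wild type with antimycin A (adjusted p = 0.226, background 6.66%) and 1.37 ± 0.55 with hydrogen peroxide (adjusted p = 0.197, background 3.04%). For anac017-2 these differences were 0.80 ± 0.55 (adjusted p = 0.299, background 38.9%) and 0.82 ± 0.55 (adjusted p = 0.642, background 0.189%).

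Ordered by mean, HIS1-3 was highest in anac017-1 under antimycin A (9.97 ± 0.14), followed by rao2 under antimycin A (7.62 ± 0.86), anac017-1 under hydrogen peroxide (7.54 ± 0.28), anac017-2 under antimycin A (7.21 ± 0.25) and anac017-1 in water (6.95 ± 0.55). Wild type under antimycin A (6.41 ± 0.21) came next, so anac017-1 seedlings sprayed with water overlapped antimycin A-treated wild type seedlings. Below these lay rao2 (5.75 ± 0.04), anac017-2 (5.20 ± 0.70) and wild type (4.37 ± 1.35) under hydrogen peroxide, then anac017-2 (4.23 ± 0.42), wild type (3.69 ± 1.09) and rao2 (2.98 ± 0.88) in water. Neighbours in this order overlapped, except between the first and the second group and between wild type under antimycin A and rao2 under hydrogen peroxide.

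COR47 was above background on every array and was called higher than in water under hydrogen peroxide in wild type and under antimycin A in anac017-2. In rao2, COR47 read 10.63, 11.12 and 10.56 under antimycin A, 10.97, 11.66 and 10.55 under hydrogen peroxide, and 9.94, 10.21 and 10.78 under water. In anac017-1 it read 11.30, 10.99 and 10.89 under antimycin A, 10.81, 11.94 and 11.36 under hydrogen peroxide, and 11.51, 10.81 and 10.32 under water. The spray groups overlapped in both of these genotypes. In anac017-2, COR47 read 11.45, 10.92 and 11.07 under antimycin A, 10.78, 10.48 and 10.51 under hydrogen peroxide, and 9.88, 9.71 and 9.69 under water. All 3 spray groups of anac017-2 were apart, with antimycin A highest. In anac017-2, 36.3% of all probe sets did not overlap between antimycin A and water, and 26.5% between hydrogen peroxide and water. The share between antimycin A and hydrogen peroxide was not counted. In wild type COR47 read 10.32, 10.86 and 11.18 under antimycin A, 11.02, 11.02 and 11.61 under hydrogen peroxide, and 9.71, 10.05 and 10.80 under water. The wild type hydrogen peroxide arrays lay above its water arrays, and the antimycin A arrays overlapped both.

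Hydrogen peroxide raised COR47 in wild type by 1.03 ± 0.33, 2.04-fold (limma adjusted p = 0.0343), in a response in which 14.8% of probe sets were called and 43.4% did not overlap. Leaving out 5 of the 6 arrays one at a time ended this call each time (adjusted p up to 0.185), as did a fit to the 6 arrays alone (adjusted p = 0.121). The changes in the mutants were 0.75 ± 0.33 in rao2 (adjusted p = 0.158), 0.49 ± 0.33 in anac017-1 (adjusted p = 0.65, background 1.42% called and 22.1% not overlapping) and 0.83 ± 0.33 in anac017-2 (adjusted p = 0.121, background 9.01% called and 26.5% not overlapping), and none of them was called. Antimycin A raised COR47 in anac017-2 by 1.38 ± 0.33, 2.61-fold (adjusted p = 0.00497). In the other genotypes the antimycin A change was 0.46 ± 0.33 in rao2 (adjusted p = 0.308), 0.18 ± 0.33 in anac017-1 (adjusted p = 0.802) and 0.60 ± 0.33 in wild type (adjusted p = 0.157). The wild type change under antimycin A was called without wild type water replicate 3 (0.91, adjusted p = 0.0386).

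The COR47 responses of the mutants differed from that of wild type by -0.54 to 0.79, and none of these 6 differences was called. For antimycin A in anac017-2 the difference from wild type was 0.79 ± 0.46 (limma adjusted p = 0.24, 95% interval -0.17 to 1.74). The antimycin A response of anac017-2 exceeded that of anac017-1 by 1.21 ± 0.46 (adjusted p = 0.0468), in a contrast that was added after the data were seen and called 33.5% of probe sets. Leaving out 9 of the 12 arrays one at a time ended the call each time (adjusted p up to 0.164). In water COR47 differed from wild type by 0.12 ± 0.33 in rao2 (adjusted p = 1), 0.69 ± 0.33 in anac017-1 (adjusted p = 0.261) and -0.43 ± 0.33 in anac017-2 (adjusted p = 0.937). Antimycin A against hydrogen peroxide gave COR47 differences from -0.43 to 0.55 over the genotypes, none of them called.

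The 12 group means of COR47 ran from 11.37 ± 0.56 in anac017-1 under hydrogen peroxide to 9.76 ± 0.10 in anac017-2 in water. Wild type under hydrogen peroxide (11.22), anac017-2 under antimycin A (11.14), rao2 under hydrogen peroxide (11.06), anac017-1 under antimycin A (11.06) and anac017-1 in water (10.88) followed the highest. Then came wild type (10.79) and rao2 (10.77) under antimycin A, anac017-2 under hydrogen peroxide (10.59), rao2 in water (10.31) and wild type in water (10.19). All neighbours in this order overlapped. The 3 lowest groups were all water groups, while the anac017-1 water group ranked the sixth.

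**Figure D2:**
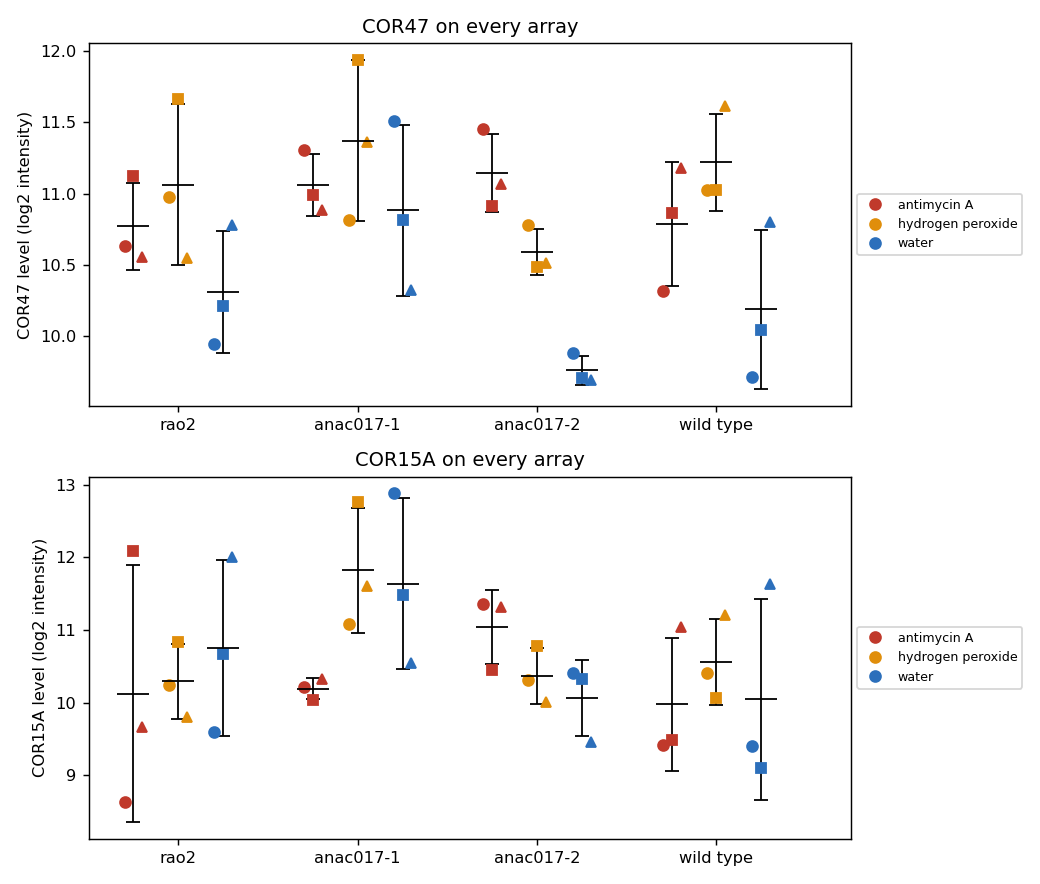
COR47 (top) and COR15A (bottom) levels (log2 intensity, vertical axes) on each of 36 arrays, by genotype and spray; circles, squares and triangles are replicates 1, 2 and 3, and bars are the mean ± SD of 3 arrays. The 3 COR47 spray groups of anac017-2 are apart, where 36.3% (antimycin A and water) and 26.5% (hydrogen peroxide and water) of all probe sets did not overlap. COR15A arrays of 1 group lie up to 3.45 apart.

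COR15A was above background on every array and was called in none of the 32 contrasts. Its unadjusted p was under 0.05 in 3 of them. In rao2, COR15A read 8.63, 12.08 and 9.66 under antimycin A, 10.24, 10.84 and 9.80 under hydrogen peroxide, and 9.59, 10.67 and 12.01 under water. In anac017-1 it read 10.21, 10.03 and 10.32 under antimycin A, 11.08, 12.77 and 11.61 under hydrogen peroxide, and 12.89, 11.48 and 10.54 under water. The arrays of rao2 overlapped across sprays, whereas the anac017-1 antimycin A arrays lay below all its other arrays. In anac017-2, COR15A read 11.35, 10.46 and 11.32 under antimycin A, 10.30, 10.78 and 10.01 under hydrogen peroxide, and 10.40, 10.32 and 9.46 under water. In wild type it read 9.41, 9.48 and 11.04 under antimycin A, 10.41, 10.06 and 11.21 under hydrogen peroxide, and 9.41, 9.10 and 11.63 under water. The anac017-2 antimycin A arrays lay above its water arrays, and the wild type groups overlapped with replicate 3 highest in each.

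Against water, COR15A under antimycin A differed by -0.63 ± 0.76 in rao2 (limma adjusted p = 0.615), -1.45 ± 0.76 in anac017-1 (adjusted p = 0.13), 0.98 ± 0.76 in anac017-2 (adjusted p = 0.507) and -0.07 ± 0.76 in wild type (adjusted p = 0.976). Under hydrogen peroxide the differences were -0.46 ± 0.76 in rao2 (adjusted p = 0.873), 0.18 ± 0.76 in anac017-1 (adjusted p = 0.975), 0.30 ± 0.76 in anac017-2 (adjusted p = 0.925) and 0.51 ± 0.76 in wild type (adjusted p = 0.717). Leaving out single arrays moved these changes across 0 for antimycin A in rao2 (-1.61 to 0.12) and wild type (-0.60 to 0.72) and for hydrogen peroxide in rao2 (-1.04 to 0.16) and anac017-1 (-0.36 to 0.81), and gave 0.04 to 1.31 for hydrogen peroxide in wild type, with no call in any of these. The 95% intervals were wide: that for antimycin A in wild type ran from -1.63 to 1.48, so changes within that range in either direction were not excluded. In water COR15A stood 1.59 ± 0.76 higher in anac017-1 than in wild type (adjusted p = 0.262), 0.71 ± 0.76 higher in rao2 (adjusted p = 1) and 0.01 ± 0.76 higher in anac017-2 (adjusted p = 1), with no call. Antimycin A against hydrogen peroxide gave -1.63 ± 0.76 in anac017-1 (adjusted p = 0.0839), which was called in a fit to those 6 arrays alone (adjusted p = 0.0342) and with array weights (-1.80, adjusted p = 0.0449).

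The antimycin A response of COR15A in anac017-2 exceeded that in anac017-1 by 2.43 ± 1.07 (limma adjusted p = 0.0857), without a call. It was called with array weights (2.27, adjusted p = 0.0482), in a fit to the 12 arrays concerned (2.43, adjusted p = 0.0295) and without anac017-1 water replicate 3 (2.98, adjusted p = 0.0415). Every array of anac017-1 under antimycin A lay below its water arrays, as in 52.3% of probe sets that did not overlap in that comparison in either direction. Every array of anac017-2 under antimycin A lay above its water arrays, where 36.3% of probe sets did not overlap. COR15A group means ran from 11.82 ± 0.86 in anac017-1 under hydrogen peroxide and 11.64 ± 1.18 in anac017-1 in water, through 11.04 in anac017-2 under antimycin A, 10.75 in rao2 in water, 10.56 in wild type, 10.36 in anac017-2 and 10.29 in rao2 under hydrogen peroxide, 10.19 in anac017-1 and 10.12 in rao2 under antimycin A, and 10.06 in anac017-2 and 10.05 in wild type in water, to 9.98 ± 0.92 in wild type under antimycin A. All neighbours in this order overlapped.

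**Figure D3:**
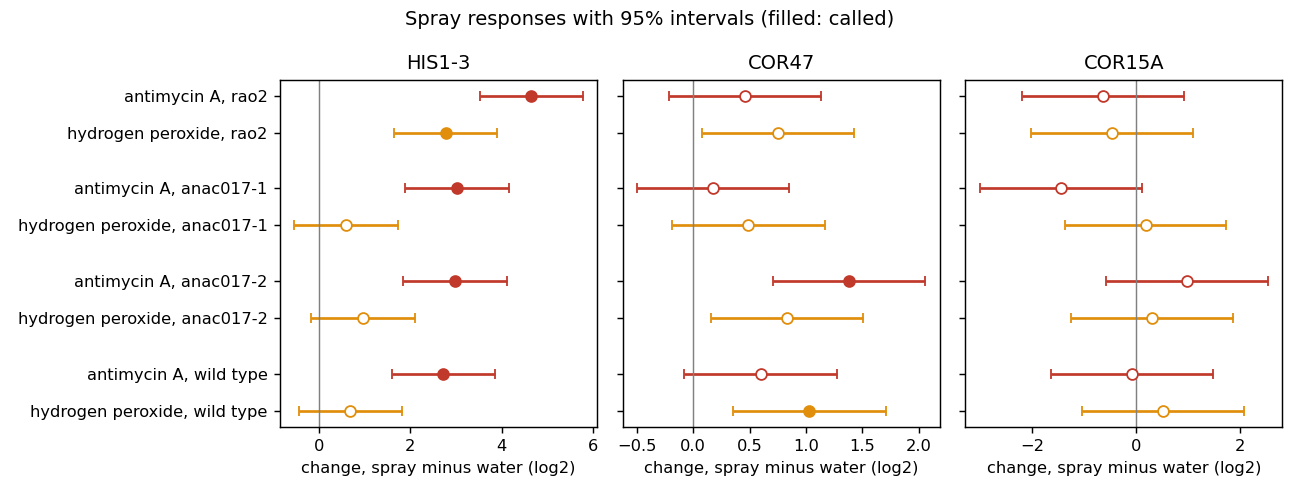
Changes of HIS1-3, COR47 and COR15A (log2, horizontal axis) for antimycin A or hydrogen peroxide against water in each genotype, with 95% confidence intervals from the limma fit; filled points passed the test. HIS1-3 under antimycin A changed by 2.72 to 4.64, whereas the COR15A intervals all include 0.

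The spread between arrays of a group was large for these genes. The residual SD of the fit was 0.95 for COR15A, 0.69 for HIS1-3 and 0.41 for COR47, against a median of 0.152 over all probe sets. This was higher than in 99% of all probe sets for COR15A, 97.1% for HIS1-3 and 89% for COR47. All probe sets include those near background, where the spread can be small, as for EXPA7 (SD 0.01 in wild type under antimycin A). A comparison with probe sets above background only was not made. The HIS1-3 spread was uneven, with SDs from 0.04 in rao2 to 1.35 in wild type, both under hydrogen peroxide. COR15B (AT2G42530), the neighbour of COR15A in the TAIR10.1 annotation and a close paralog of it, was also measured by a single-gene probe set. Probes of such similar transcripts can bind both, so COR15A and COR15B values are not separate measurements with certainty. In wild type, replicate 3 was the highest array under all 3 sprays for COR47, COR15A and COR15B. In anac017-2, replicate 1 was the highest under all 3 sprays for COR47 and COR15B, but not for COR15A. In rao2 and anac017-1 no replicate number was highest under all 3 sprays for any of these genes, nor was any for HIS1-3 in any genotype. How often such a pattern occurs over all probe sets was not counted. Without the wild type arrays numbered 3, a comparison added after the data were seen, the wild type changes were 0.71 (adjusted p = 0.152) under antimycin A and 1.14 (adjusted p = 0.0483) under hydrogen peroxide for COR47, and 2.98 (adjusted p = 0.000448) and 0.38 (adjusted p = 0.796) for HIS1-3. For COR15A they were 0.19 (adjusted p = 0.894) under antimycin A and 0.98 (adjusted p = 0.558) under hydrogen peroxide.

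Arrays that were high for 1 of these genes within their group tended to be high for the others. Deviations from the group mean were correlated over 36 arrays in 6 pairs of genes, a relation examined after the data were seen, with labels permuted 100000 times within groups and 2-sided p-values adjusted over the 6 pairs. The highest coefficient was that of COR15A and COR15B (Pearson r = 0.92, adjusted permutation p = 3e-05; Spearman rho = 0.94, adjusted permutation p = 2e-05). COR47 followed COR15A (r = 0.81, adjusted permutation p = 4e-05; rho = 0.81, adjusted permutation p = 2e-05) and COR15B (r = 0.78, adjusted permutation p = 3e-05; rho = 0.82, adjusted permutation p = 2e-05). An unadjusted p of 1e-05 is the smallest these permutations can give. HIS1-3 followed COR47 (r = 0.62, adjusted permutation p = 0.00021; rho = 0.67, adjusted permutation p = 0.00048), COR15B (r = 0.62, adjusted permutation p = 0.00981; rho = 0.56, adjusted permutation p = 0.0126) and COR15A (r = 0.57, adjusted permutation p = 0.00981; rho = 0.53, adjusted permutation p = 0.0126). Without the 2 arrays farthest from the median of the first gene, r lay between 0.51 and 0.89. Other probe sets were not correlated in this way, so whether the relation is particular to these genes was not tested. Arrays of the same number in 1 genotype did not deviate together over all probe sets (36 pairs, median r = 0.03). That median, taken over all probe sets, does not speak for single genes. COR47, COR15A and COR15B were highest in replicate 3 under all 3 wild type sprays, while rao2 and anac017-1 had no such pattern. A fit that pairs arrays by number within a genotype was not run, so its effect on the calls was not tested. The permutations also treated arrays of the same number in a genotype as separate. The permutation p-values may be too small if such arrays shared a source.

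**Figure D4:**
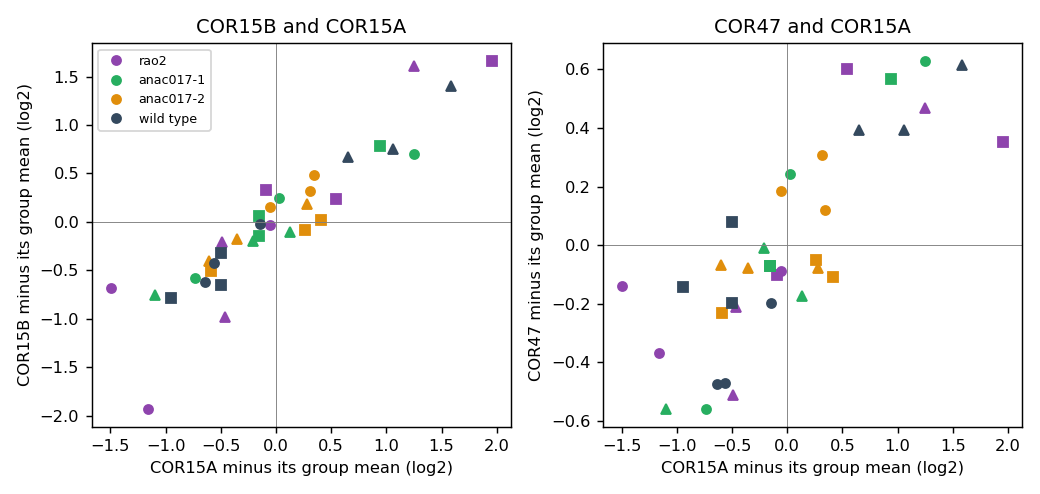
Deviation of each array from its group mean (log2) for COR15B (left) and COR47 (right) on the vertical axes against COR15A on the horizontal axes, for 36 arrays; colour marks the genotype, and circles, squares and triangles are replicates 1, 2 and 3. Points run from lower left to upper right, with r = 0.92 for COR15B and r = 0.81 for COR47.

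The wider set held 100 genes, those of abscisic acid signalling and of drought and cold protection together with 2 other linker histones. Of these, 10 had a single-gene probe set. These were 8 of 35 protective and marker genes and both other linker histones. No single-gene probe set covered the 9 receptors, 9 phosphatases, 5 kinases, 24 transcription factors or 16 genes of abscisic acid metabolism and transport. The signalling steps themselves were thus not analysed here. Since 8730 tested probe sets had no gene entry and 503 listed several genes, these genes may be on the array without being identified here. ERD10, the dehydrin gene beside COR47, also had no single-gene probe set. Members of the set include COR47, COR15A and HIS1-3.

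Antimycin A left 6 of the 10 genes higher in rao2, 5 in anac017-1, 5 in anac017-2 and 5 in wild type, and none lower. Of all probe sets, 16.4% were called higher in rao2, 17.7% in anac017-1, 6.9% in anac017-2 and 17.2% in wild type. The median change of the 10 was 1.22 in rao2, 0.67 in anac017-1, 0.83 in anac017-2 and 0.94 in wild type, beside medians of -0.02, -0.02, 0.00 and -0.02 over all probe sets. The 10 include the linker histone genes AT1G06760 and AT2G30620. Of the other 8, 4 were called higher in rao2 and 3 each in anac017-1, anac017-2 and wild type. Medians of these 8 were 0.89, 0.36, 1.18 and 0.61 in the same order. Hydrogen peroxide left 4 higher in rao2, 0 in anac017-1, 2 in anac017-2 and 5 in wild type, and none lower, with medians of 0.47, 0.32, 0.67 and 0.64 beside -0.01, 0.02, 0.01 and -0.03 over all probe sets. Among the 8 without these linker histones the counts were 2, 0, 1 and 3, with medians of 0.44, 0.41, 0.82 and 0.76. Of all probe sets, 5.12% were called higher in rao2, 0.783% in anac017-1, 4.18% in anac017-2 and 6.74% in wild type. For anac017-1 the count of 0 comes from limma at the adjusted threshold, and 3 of the 10 had an unadjusted p under 0.05. In water 1 of the 10 genes, HIS1-3, was called in anac017-1, and none was called in rao2 or anac017-2 by limma at the adjusted threshold, nor had any an unadjusted p under 0.05 there. The median difference of the 10 genes from wild type in water was 0.13 in rao2, 0.90 in anac017-1 and 0.00 in anac017-2, beside -0.01, -0.03 and -0.01 over all probe sets. For the 8 without these linker histones it was 0.13, 1.35 and 0.00. For anac017-1 the uncalled differences included 1.87 for COR15B (adjusted p = 0.127), 1.70 for LEA4-5 (adjusted p = 0.353) and a 2.15-fold higher level for LTI30 (adjusted p = 0.175).

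LTI30, which encodes a dehydrin that binds membranes, was called higher after antimycin A than after water in all 4 genotypes. Of all probe sets, 42.2% were called in rao2, 45.3% in anac017-1, 15.3% in anac017-2 and 44% in wild type. Called higher were 16.4%, 17.7%, 6.9% and 17.2% in turn. The LTI30 level was 9.43 ± 0.11 under antimycin A and 7.98 ± 0.41 under water in rao2, a change of 1.44 (limma adjusted p = 0.0105). The change was 1.42 in anac017-1 (adjusted p = 0.0106), 1.98 in anac017-2 (adjusted p = 0.00357) and 2.52 in wild type (adjusted p = 3.94e-05). In anac017-1 the arrays overlapped, with water reaching 9.86 and antimycin A starting at 9.73. The LTI30 calls were not checked by leaving out single arrays. Under hydrogen peroxide LTI30 was called higher in wild type (2.13, adjusted p = 0.00203, background 14.8%). Its changes of 1.02 in rao2 (adjusted p = 0.163), 1.38 in anac017-1 (adjusted p = 0.134) and 1.33 in anac017-2 (adjusted p = 0.0658) were not called. No mutant response was called different from that of wild type. Those contrasts called only 0.0132% of all probe sets for rao2, 0.0264% for anac017-1 and 0.0352% for anac017-2.

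RD2, a desiccation-responsive gene, rose with antimycin A by 0.61 in rao2 (limma adjusted p = 0.00057), 0.79 in anac017-1 (adjusted p = 2.26e-05) and 1.27 in wild type (adjusted p = 2.04e-08), while the change in anac017-2 was 0.23 (adjusted p = 0.333). The anac017-2 response fell short of the wild type response by a difference of -1.04 (adjusted p = 0.000182). Under hydrogen peroxide RD2 rose by 0.50 in rao2, 0.80 in anac017-2 and 0.83 in wild type, and its change of 0.47 in anac017-1 was not called (adjusted p = 0.0804). DI21, a drought-induced gene, rose in rao2 under antimycin A by 1.17 (adjusted p = 0.000246). Its changes of 0.55 in anac017-1 (adjusted p = 0.0681), 0.57 in anac017-2 (adjusted p = 0.121) and 0.22 in wild type (adjusted p = 0.565) were not called, and the difference between the rao2 and wild type responses was 0.95 ± 0.34 (adjusted p = 0.258). LEA4-5, which encodes a protein of the late embryogenesis abundant class, was not above background on any array of wild type or anac017-2, and it was above background on 6 of the 36 arrays. These read 5.49 and 2.63 in rao2 under antimycin A, and in anac017-1 7.57 under hydrogen peroxide and 5.97 and 3.53 under water, with 1 anac017-1 antimycin A array just above the limit. DI21 and LEA4-5 were named after their values were seen.

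COR15B averaged 9.57 ± 1.45 under antimycin A and 9.93 ± 1.79 under water in rao2, 10.42 ± 0.21 and 11.31 ± 0.73 in anac017-1, 11.28 ± 0.44 and 9.64 ± 0.45 in anac017-2, and 10.06 ± 0.65 and 9.44 ± 1.22 in wild type (SD, n = 3 each). None of its spray responses was called. As for COR15A, the anac017-1 mean was lower under antimycin A than in water and the anac017-2 mean higher.

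The linker histone genes AT1G06760 and AT2G30620 encode the main histone H1 proteins of Arabidopsis, and their names come from general knowledge since the annotation gives no symbol. With antimycin A, AT1G06760 rose by 1.90 in rao2, 2.15 in anac017-1, 0.67 in anac017-2 and 1.55 in wild type. AT2G30620 rose by 1.49, 1.66, 0.54 and 1.26 in the same genotypes. All 8 changes were called, beside 4 of 4 for HIS1-3. Of all probe sets, antimycin A called 42.2% in rao2, 45.3% in anac017-1, 15.3% in anac017-2 and 44% in wild type. Called higher were 16.4%, 17.7%, 6.9% and 17.2%. Neither gene was called between any mutant and wild type in water, with differences from -0.05 to 0.19. Contrasts added after the data were seen called both higher in anac017-1 than in wild type under antimycin A. These differences were 0.57 (limma adjusted p = 0.00119) and 0.52 (adjusted p = 0.00289), with a background of 18.6%. In rao2 they were 0.53 (adjusted p = 0.00669) and 0.31 (adjusted p = 0.141, not called), with a background of 6.66%. Both genes were called lower in anac017-2 (-0.93 and -0.53, background 38.9%). Their antimycin A responses in anac017-2 were smaller than in wild type by differences of -0.88 (limma adjusted p = 0.000309) and -0.72 (adjusted p = 0.00219), where that of HIS1-3 was 0.25 (adjusted p = 0.904).

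**Figure D5:**
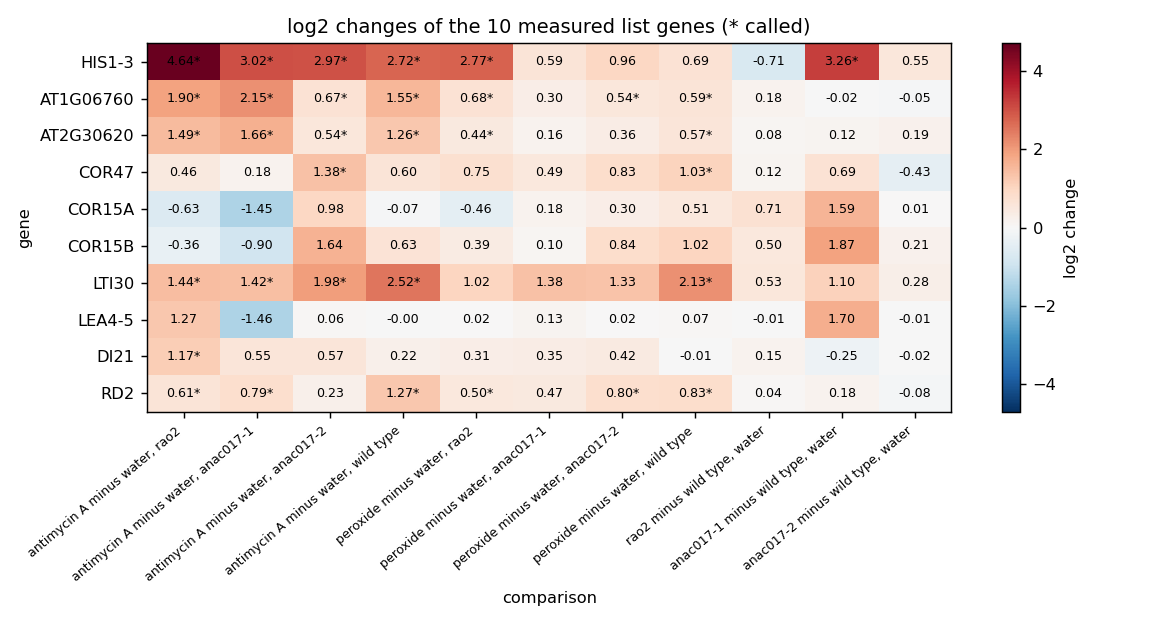
Change (log2, colour and number) of each of 10 measured genes (rows) for antimycin A or hydrogen peroxide against water in each genotype and for each mutant against wild type in water (columns). The rows are 8 abscisic acid, drought and cold genes and the linker histone genes AT1G06760 and AT2G30620. An asterisk marks a call at adjusted p under 0.05. HIS1-3 holds the highest values, up to 4.64 for antimycin A in rao2.

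Among 2429 single-gene probe sets whose group means varied with an SD of at least 0.5, those most like each member were ranked by Pearson r over the 12 group means, as a description with no test. Closest to HIS1-3 were AT1G52710 (0.952), AT4G33980 (0.952), AT5G22700 (0.952), AT3G57170 (0.947) and AT5G04880 (0.943). Closest to COR47 were AT3G05640 (0.935), AT1G51090 (0.913), AT1G78070 (0.882), AT3G27210 (0.880) and AT1G80960 (0.868). Closest to COR15A were AT1G58150 (0.896), AT2G14800 (0.893), COR15B (0.855), CRR28 (0.854) and 2A6 (0.852). The points share the normalization of the arrays and 3 arrays each.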

How the data were processed

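Total RNA of green leaf tissue was labelled with biotin and hybridised to 1 Affymetrix array per sample. The authors deposited 1 table of normalized intensities on a linear scale (2.096 to 54591); the submitters' processing notes name RMA and GCRMA, with no version, and the method behind the table is not given in the sources used here. All analyses used log2 of these intensities. From 22810 probe sets, 64 controls were left out; 13513 of the 22746 tested had 1 gene in the platform's gene table, 503 had several and 8730 had no entry. Group means were fitted to 36 arrays with limma 3.58.1 in R 4.3.3 (24 residual and 1.28 prior degrees of freedom; the script was tested on simulated data), with Benjamini-Hochberg adjustment within each of 32 contrasts. Of these, 21 were planned (8 sprays against water, 3 mutants in water, 6 differences of responses, 4 comparisons of sprays) and 11 were added after the data were seen.

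Members and lists were chosen with earlier results of these data known. Named always were the 3 members and their nearest relatives COR15B, AT1G06760 and AT2G30620. Named from the list were genes called in a wild type response, and for each member the 5 probe sets with the most similar group means. The limit for background was set after the results were seen. Depth has no meaning for arrays, and the number of arrays limits the precision. Symbols were matched to the TAIR10.1 gene table. Alternatives were quantile normalization, array weights, a robust prior with trend, raised low values, dim probe sets left out, a replicate block, fits to the groups of a contrast alone and leaving out each array. Arrays of the same number in 1 genotype were checked for pairing over all probe sets (36 pairs, 8 of them with r over 0.1) and were not treated as pairs.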

Additional observations from a re-analysis of the deposited data

Results flagged for a closer look

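Several genes responded differently to antimycin A in anac017-2 and in another genotype, by the test of the difference itself (limma, all 36 arrays). Such differences were common, with 28.4% of all probe sets called against wild type and 33.5% against anac017-1. Of the 10 measured genes of the wider set, 3 were called against wild type, all lower. Against anac017-1, 2 were called higher and 3 lower. The COR47 response in anac017-2 exceeded that in anac017-1 by 1.21 ± 0.46 (SE; adjusted p = 0.0468), and the COR15B response did so by 2.54 ± 0.98 (adjusted p = 0.0488). The contrasts with anac017-1 were added after the data were seen, and the COR47 call was lost without any of 9 of its 12 arrays in turn (adjusted p up to 0.164). Alternatives were run for COR47, COR15A and HIS1-3 only, so the COR15B call was not checked in this way. Its paralog COR15A was not called in the same contrast (2.43, adjusted p = 0.0857). The RD2 response in anac017-2 differed by -1.04 from that in wild type (adjusted p = 0.000182) and by -0.56 from that in anac017-1 (adjusted p = 0.0249).

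The linker histone AT1G06760 responded less in anac017-2, by -0.88 against wild type (adjusted p = 0.000309) and by -1.48 against anac017-1 (adjusted p = 2.82e-07). For the linker histone AT2G30620 the differences were -0.72 (adjusted p = 0.00219) and -1.12 (adjusted p = 1.24e-05). These comparisons called 28.4% of all probe sets against wild type and 33.5% against anac017-1.

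COR15A stood on opposite sides of its water level in 2 genotypes, without a call in either: all antimycin A arrays lay below all water arrays in anac017-1 (-1.45) and above them in anac017-2 (0.98). The test of this difference gave 2.43 ± 1.07 (adjusted p = 0.0857). Antimycin A and water arrays did not overlap in 52.3% of all probe sets in anac017-1 and 36.3% in anac017-2.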

How the results depend on the processing

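Over 96 results (3 members in 32 contrasts) and 1401 alternatives, 43 changed their side of the threshold and none of the called changes reversed, while 78 alternatives turned the sign of a change that was not called. Fits to the groups of a contrast alone, which have fewer arrays, lost the calls of COR47 for hydrogen peroxide in wild type (1.03, adjusted p = 0.121) and of HIS1-3 for anac017-1 against wild type in water (3.26, 0.0653) and under hydrogen peroxide (3.17, 0.0948), for anac017-1 against rao2 under antimycin A (2.35, 0.0562), and for antimycin A against hydrogen peroxide in wild type (2.03, 0.0992) and anac017-2 (2.01, 0.132). They gained calls of COR47 for hydrogen peroxide in anac017-2 (0.83, 0.0368), of COR15A for antimycin A against hydrogen peroxide in anac017-1 (-1.63, 0.0342) and for the antimycin A response of anac017-2 minus anac017-1 (2.43, 0.0295), and of HIS1-3 for anac017-2 against wild type under antimycin A (0.80, 0.0215). HIS1-3 in anac017-1 against rao2 under hydrogen peroxide was also called in such a fit (1.80, 0.012), with low values raised (1.80, 0.048), with dim probe sets left out (1.80, 0.0407), after quantile normalization (1.84, 0.049) and with array weights (1.87, 0.0192). Array weights also gained both COR15A calls (-1.80, 0.0449; 2.27, 0.0482) and lost HIS1-3 for antimycin A against hydrogen peroxide in anac017-2 (1.94, 0.0907). The cause was not tested.

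The replicate block lost 1 call, COR47 for the antimycin A response of anac017-2 minus anac017-1 (1.21, adjusted p = 0.0553), and changed no other call. This block fits 1 common effect per replicate number over all genotypes. It cannot take up a pattern that differs between genotypes, such as COR47 being highest in replicate 3 in wild type and replicate 1 in anac017-2. Leaving out single arrays changed calls for COR47 under antimycin A (0.36 to 0.91) and hydrogen peroxide (0.79 to 1.34) in wild type, for COR47 (0.89 to 1.49) and COR15A (1.81 to 2.98) in the antimycin A response of anac017-2 minus anac017-1, for HIS1-3 in antimycin A against hydrogen peroxide in rao2 (1.47 to 2.32), anac017-2 (1.64 to 2.33) and wild type (1.31 to 2.65), and for HIS1-3 in rao2 against wild type under hydrogen peroxide (0.65 to 1.99, called without wild type hydrogen peroxide replicate 3, adjusted p = 0.0479).

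Counts of called probe sets, and with them the background percentages, moved by over 1.5 times in 23 of 32 contrasts under at least 1 alternative. Hydrogen peroxide in wild type called 3361 probe sets, and 5244 with array weights. For anac017-1 against wild type in water 1235 were called, 3106 with array weights and 729 in a fit to those groups alone. The number of arrays limits the precision, with a standard error of a change of 0.76 for COR15A, 0.55 for HIS1-3 and 0.33 for COR47.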
